A study of Mus musculus with 6 samples.

Results

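Collagens and laminins are the structural protein chains of the extracellular matrix, and their genes were followed here in hearts of mouse embryos with and without Arid3b. The members were all genes whose mouse symbol is Col, a number and a letter a, or Lama, Lamb or Lamc with a number. The RefSeq gene table held 55 such genes, 53 had a probe on the array, and 44 passed the filter on dim probes and were tested among 21809 genes. Gene expression was measured on 6 single-colour arrays, 3 of wild-type and 3 of Arid3b-null hearts, all at embryonic day 9.5. Each sample was a pool of 4 embryos, and the dissected tissue held the heart tube together with the mesoderm and endoderm of the pharynx lying under it. The labels give no strain, sex or design of the null allele. Both groups are whole-tissue pools, so a lower share of a cell type and less RNA per cell cannot be told apart.

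Collagen molecules are triple helices of 3 alpha chains. The fibrillar types (I, II, III, V, XI, XXIV and XXVII) assemble into the banded fibres of connective tissue, whereas type IV collagen forms the network of basement membranes. Laminins are heterotrimers of an alpha, a beta and a gamma chain that polymerise into the sheet on which epithelial, endothelial and muscle cells rest. In the embryonic heart, basement membranes surround the myocardium and endocardium, and the space between them is filled by the cardiac jelly.

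All values are log2 signals relative to the 75th percentile of the array, and a change is null minus wild type with its moderated standard error (SE). A gene was called changed at a limma adjusted p under 0.05 over all 21809 genes, and levels are not compared between genes because each is read by a different probe. Arid3b read 2.91, 3.40 and 3.69 in wild-type pools 1, 2 and 3 and 1.08, 0.52 and 0.45 in null pools 1, 2 and 3, a change of -2.65 (limma adjusted p = 0.00194). Which part of Arid3b was deleted is not given in the sources used, so this probe may lie outside it. On each array, 27136 to 31039 of 43020 spots were well above background and 0 were saturated. The 6 arrays lay on 3 slides, and wild-type and null pools with a shared number were on the same slide. On each of them the wild-type sample was at one position and the null sample at another, so position and genotype cannot be told apart. Null pool 3 stood apart by its trophoblast transcripts, which are described with the other marker genes, so counts are also given without its slide.

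In the null hearts 7 of the 44 members rose (15.9%, against 6.63% of all genes) and 2 fell (4.55%, near the 3.8% of all genes). The risen genes were the laminin chains Lamb3, Lama5, Lama2 and Lamb1 and the collagens Col6a1, Col20a1 and Col11a1, and the fallen genes were Lamc3 and Col2a1. The wild-type and null pools did not overlap for 21 of the 44 members (47.7%, against 32.9% of all genes). The median change was 0.28 over the members and 0.03 over all genes, with 29 members higher and 15 lower. Under a block for slide, Col20a1, Col6a1 and Lamb3 rose and Lamc3 fell, which is 9.09% of the members against 3.42% of all genes. Without both arrays of slide 3, a setting added after the data were seen that leaves 2 pools per group, 1 member rose (Col6a1, adjusted p = 0.0384) and 0 fell. In that setting only 214 of all 21809 genes rose and 59 fell, against 1447 and 829 with all arrays. Without null pool 3 alone, Col20a1, Col6a1, Lama5 and Lamb3 rose and Lamc3 fell, and the same 5 calls came out without wild-type pool 2, wild-type pool 3 or null pool 2. Over all genes, 764 rose and 344 fell without null pool 3.

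**Figure D1:**
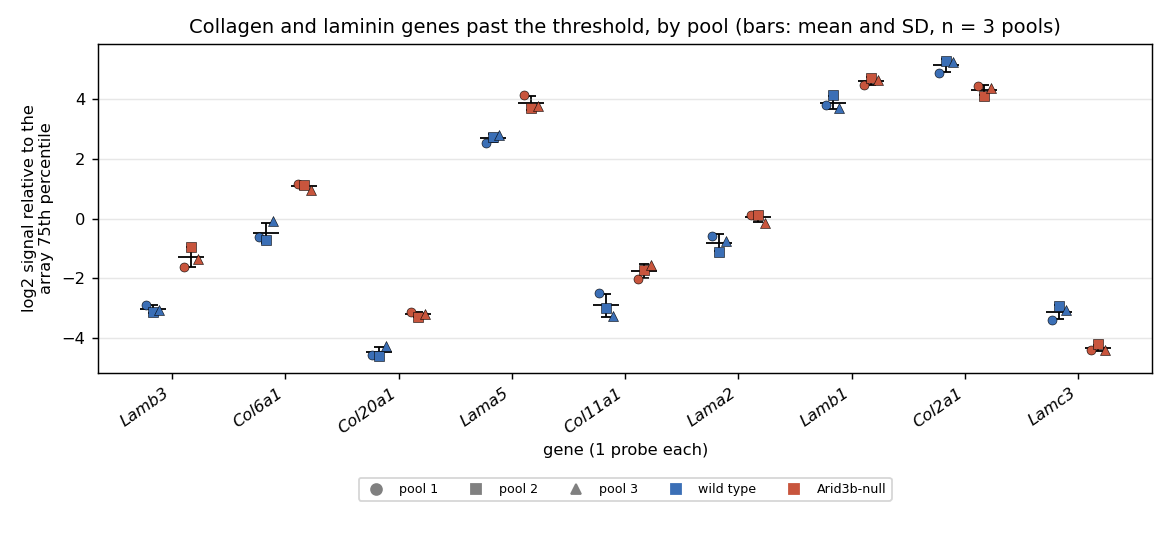
Log2 signal relative to the array's 75th percentile (vertical axis) for the 9 collagen and laminin genes past the threshold (horizontal axis), with 1 symbol per pool (circles, squares and triangles for pools 1, 2 and 3), blue for wild type and red for Arid3b-null, and bars for the mean and SD of 3 pools. Both colours stay apart for each of the 9 genes, with Col2a1 and Lamc3 lower in the null pools and the other 7 higher.

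The promoter windows of Lamb3, Col6a1 and Lama5, 3 of the members that rose, are shown with that of P4ha2, a collagen-modifying enzyme that rose most among the companion genes. They are the 250 bases before the annotated start, from the RefSeq table of build GRCm38.p6, printed on the strand of the gene. Lamb3 lies on the plus strand (chr1:193301744-193301993, the first of its 2 windows), Col6a1 on the minus strand (chr10:76726045-76726294), Lama5 on the minus strand (chr2:180225860-180226109) and P4ha2 on the plus strand (chr11:54100674-54100923). Capitals mark ACGTG, 1 form of the core of the hypoxia response element, which was searched on both strands. The other form, GCGTG, was not counted over the windows and is not marked. The Lamb3 and P4ha2 windows printed here both hold it, so a window without capitals does not lack the core for that reason.
Lamb3: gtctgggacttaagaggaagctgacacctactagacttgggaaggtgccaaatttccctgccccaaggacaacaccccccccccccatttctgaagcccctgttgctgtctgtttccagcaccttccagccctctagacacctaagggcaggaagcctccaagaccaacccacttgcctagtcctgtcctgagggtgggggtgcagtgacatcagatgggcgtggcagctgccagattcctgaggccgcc
Col6a1: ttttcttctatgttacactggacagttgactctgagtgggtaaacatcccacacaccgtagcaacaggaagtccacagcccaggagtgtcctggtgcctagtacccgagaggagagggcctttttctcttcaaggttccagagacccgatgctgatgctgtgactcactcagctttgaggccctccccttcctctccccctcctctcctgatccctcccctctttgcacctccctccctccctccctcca
Lama5: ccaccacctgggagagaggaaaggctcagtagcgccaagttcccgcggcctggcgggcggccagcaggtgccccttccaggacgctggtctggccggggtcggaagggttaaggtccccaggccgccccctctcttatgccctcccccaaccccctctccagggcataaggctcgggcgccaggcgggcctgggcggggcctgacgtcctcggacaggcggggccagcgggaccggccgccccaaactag
P4ha2: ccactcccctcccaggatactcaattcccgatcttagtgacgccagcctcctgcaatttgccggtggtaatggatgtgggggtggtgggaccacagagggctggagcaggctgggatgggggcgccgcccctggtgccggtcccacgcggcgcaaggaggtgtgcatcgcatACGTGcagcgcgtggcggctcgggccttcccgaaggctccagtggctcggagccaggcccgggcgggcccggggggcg
The 3 member windows held no ACGTG, and the P4ha2 window held 1 set of these letters. Over all windows ACGTG occurred in 16.57% of 32851 promoters, in 4 of 36 windows of measured members (11.11%), in 0 of 8 windows of risen members and in 2 of 7 windows of risen companion genes, those of P4ha1 and P4ha2. ATTAAA, an AT-rich run of the kind that ARID3 proteins bind, shares no overlap with ACGTG and was in 12.65% of all promoters and in 0 of the 36 member windows. A match only describes the letters of a window, and some members have 2 windows or none in the table.

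Among the 11 laminin genes, all measured, 4 rose (36.4%, against 6.63% of all genes) and 1 fell (9.09%, against 3.8%). The median change was 0.47, and 8 of the 11 had groups that did not overlap (72.7%, against 32.9% of all genes). Of the 5 alpha chains, which carry the main binding sites for cell receptors, Lama5 and Lama2 rose. Lama5, the alpha chain of many mature basement membranes, read 2.55, 2.73 and 2.80 in wild-type pools 1 to 3 and 4.12, 3.72 and 3.77 in null pools 1 to 3. Every null pool lay above every wild-type pool. The means were 2.69 ± 0.13 and 3.87 ± 0.22 (SD, n = 3 pools each), a change of 1.18 (SE 0.18, 2.26-fold higher, limma adjusted p = 0.00859). Slide by slide, the null array was higher by 1.58, 0.99 and 0.97. Blocked by slide, the adjusted p was 0.0540.

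Lama2, the alpha chain of muscle and peripheral nerve laminin, read -0.57, -1.12 and -0.75 in the wild-type pools and 0.14, 0.13 and -0.14 in the null pools. Its groups did not overlap, and it rose by 0.85 (SE 0.19, limma adjusted p = 0.0356 and, blocked by slide, 0.135). The call was lost in 9 of 15 alternative settings. A second Lama2 probe changed by 0.94. Lama1, Lama3 and Lama4 did not pass. Lama1, the alpha chain of the laminin of the early embryo, read 2.33, 2.64 and 2.20 in wild-type pools and 2.06, 2.45 and 2.66 in null pools. These groups overlapped, with a change of -0.00 (SE 0.21, limma adjusted p = 0.998).

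Lama4, the alpha chain of endothelial laminin, read 1.85, 1.86 and 2.21 in the wild-type pools and 1.71, 1.53 and 1.41 in the null pools. All 3 null pools were below the wild-type pools, but the change of -0.42 (SE 0.17) did not pass (limma adjusted p = 0.176). Lama3, a chain of the laminin of epithelial anchoring structures, changed by -0.22, and a dimmer probe of it by 0.42. Taken as deviations from each gene's wild-type mean, Lama5 exceeded Lama1 by 1.76, 0.97 and 0.81 in null pools 1, 2 and 3. Against Lama4, which was lower, the same difference was 1.69, 1.47 and 1.64, a mean of 1.60 ± 0.12 (SD, n = 3). In the wild-type pools these differences lay between -0.21 and 0.29. These pairs were chosen after the values were seen and were not tested.

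The beta chains Lamb3 and Lamb1 rose. Lamb3, the beta chain of the same epithelial laminin, read -2.88, -3.13 and -3.05 in the wild-type pools and -1.61, -0.94 and -1.34 in the null pools. The lowest null pool was above the highest wild-type pool by more than the spread within either group. The means of -3.02 ± 0.13 and -1.30 ± 0.34 (SD, n = 3 pools each) differ by 1.73 (SE 0.21, 3.31-fold higher, limma adjusted p = 0.00393), the largest rise among the members. Under a block for slide the adjusted p was 0.0184, and without slide 3 it was 0.0745.

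Lamb1, the most common beta chain, shared by trimers with Lama1, Lama2, Lama4 or Lama5, read 3.81, 4.13 and 3.71 in the wild-type pools and 4.47, 4.70 and 4.66 in the null pools. The groups did not overlap, and the change of 0.72 (SE 0.17, 1.65-fold higher) passed narrowly at a limma adjusted p = 0.0417. The call was lost in 11 of 15 alternative settings, with adjusted p from 0.0318 to 0.216 over them. Lamb2, the beta chain of neuromuscular and kidney basement membranes, changed by 0.30 (limma adjusted p = 0.511), with the null array higher by 1.03 and 0.36 on slides 1 and 2 and lower on slide 3, at -0.47.

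Of the gamma chains, Lamc3 fell. Lamc3, a chain found in laminins of nerve, skin and testis, read -3.38, -2.91 and -3.07 in the wild-type pools and -4.40, -4.21 and -4.40 in the null pools. All null pools were lower than all wild-type pools. The means of -3.12 ± 0.24 and -4.33 ± 0.11 (SD, n = 3 pools each) give a change of -1.21 (SE 0.18, limma adjusted p = 0.00792 and, blocked by slide, 0.0420). Under normexp background correction the change was -0.35 and did not pass (limma adjusted p = 0.161).

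Lamc1, the gamma chain of most laminins, read 3.65, 3.47 and 3.63 in the wild-type pools and 4.05, 4.10 and 4.02 in the null pools. Every null pool was higher, yet the change of 0.47 (SE 0.15) missed the threshold (limma adjusted p = 0.0846). Set side by side, without a test of their differences, the changes of the chains of 1 trimer were 1.18 (Lama5), 0.72 (Lamb1) and 0.47 (Lamc1), with the first 2 passing the test.

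**Figure D2:**
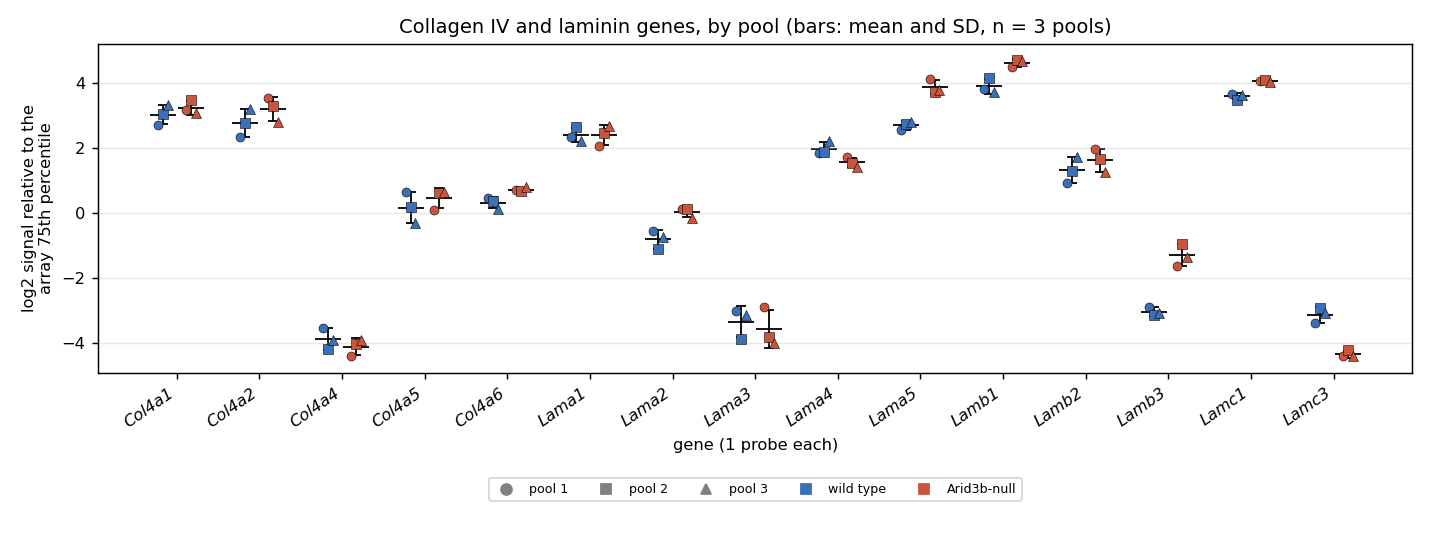
Log2 signal relative to the array's 75th percentile (vertical axis) for the 5 collagen IV genes and the laminin genes reported (horizontal axis), with 1 symbol per pool, blue for wild type and red for Arid3b-null, and bars for the mean and SD of 3 pools. Lama5 and Lamb3 rise clear of the wild-type pools and Lamc3 lies below them, while the symbols of Col4a1, Col4a2 and Lama1 overlap.

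Type IV collagen, the other network of the basement membrane, showed no call among its 5 measured genes by limma (0 of 5, median change 0.30). Col4a6 was the 1 gene without overlap and the 1 gene with an unadjusted p under 0.05. Col4a3 was well above background on 0 arrays. Col4a1 and Col4a2, which form the common trimer of embryonic basement membranes and lie head to head in the genome, overlapped between the groups. Col4a1 read 2.71, 3.03 and 3.30 in the wild-type pools and 3.16, 3.46 and 3.05 in the null pools, a change of 0.21 (SE 0.21, limma adjusted p = 0.566). Col4a2 read 2.34, 2.77 and 3.20 in the wild-type pools and 3.52, 3.28 and 2.79 in the null pools, a change of 0.43 (SE 0.28, limma adjusted p = 0.372). Wild-type pool 1 and null pool 1 were the farthest apart, at 1.18, and on slide 3 the null pool was the lower one, at -0.41.

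Col4a5 and Col4a6, chains of the minor networks, changed by 0.30 and 0.40, and Col4a4 by -0.24, none past the threshold. A second, dimmer probe of Col4a6 changed by -0.30. Over all 44 members, 12 were higher in the null array on slide 1 and lower on slide 3, among them Col4a1, Col4a2, Lamb2 and Col6a2. The opposite was found for 7, among them Col1a1, Col4a5 and Lama1, and 25 had the same sign on both slides. Array brightness also differed: on slide 1 the log2 75th percentile was 9.502 (wild type) and 9.47 (null), and on slide 3 it was 10.16 and 9.02. The part of brightness in these values was not tested.

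Collagens at the border of the basement membrane included Col18a1, whose fragment endostatin is known from blood vessels, Col15a1, its relative, and Col7a1, the anchoring fibril collagen. None of these 3 passed in limma (1, Col7a1, had an unadjusted p under 0.05), and all 3 were higher in the null mean (median change 0.52). Col18a1 read 4.64, 4.84 and 4.33 in the wild-type pools and 4.63, 4.95 and 5.01 in the null pools. Its groups overlapped, with a change of 0.26 (SE 0.20, limma adjusted p = 0.441). Col7a1 did not overlap between the groups and changed by 0.52 (limma adjusted p = 0.0714), and Col15a1 changed by 0.67 (limma adjusted p = 0.224).

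Among the 11 fibrillar collagens, all measured, 1 rose and 1 fell (9.09% each, against 6.63% and 3.8% of all genes). The median change of 0.09 was near the 0.03 of all genes (it was below 0 under quantile normalization, under scaling to the array median and in the authors' table). Col2a1, the cartilage fibril collagen that embryos also express in notochord and early heart mesenchyme, read 4.89, 5.28 and 5.23 in the wild-type pools and 4.43, 4.10 and 4.38 in the null pools. All null pools were lower. The means of 5.13 ± 0.21 and 4.31 ± 0.18 (SD, n = 3 pools each) give a change of -0.83 (SE 0.18, limma adjusted p = 0.0321 and, blocked by slide, 0.148). The call was lost in 8 of 15 alternative settings, including the authors' table.

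Col11a1, the partner of type II collagen in cartilage fibrils, moved the other way. It read -2.48, -2.99 and -3.25 in the wild-type pools and -2.02, -1.71 and -1.54 in the null pools. The groups did not overlap, although wild-type pool 1 and null pool 1 were only 0.46 apart against 1.28 and 1.71 on slides 2 and 3. The change was 1.15 (SE 0.24, 2.21-fold higher, limma adjusted p = 0.0267 and, blocked by slide, 0.0916), and it was lost in 7 of 15 alternative settings. Col11a2 changed by 0.35 and did not pass (limma adjusted p = 0.348).

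The chains of type I collagen, the main fibre of connective tissue, did not pass. Col1a1 read 2.49, 1.39 and 1.25 in the wild-type pools and 2.12, 3.12 and 2.73 in the null pools. Wild-type pool 1 lay inside the null range, and the change of 0.95 (SE 0.38) had a limma adjusted p = 0.167. Without that pool Col1a1 changed by 1.34 and was called (limma adjusted p = 0.0494). Col1a2, the second chain of the trimer, read 3.78, 3.34 and 3.44 in the wild-type pools and 4.18, 4.01 and 3.72 in the null pools, a change of 0.45 (SE 0.20, limma adjusted p = 0.191).

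Col3a1, the collagen of pliable tissues and vessel walls, read 2.57, 2.501 and 2.37 in the wild-type pools and 2.60, 1.95 and 1.81 in the null pools. Null pool 1 was as high as the wild-type pools, and the change was -0.36 (SE 0.23, limma adjusted p = 0.367). Col5a1, which helps to start fibrils, read 1.57, 1.60 and 1.58 in the wild-type pools and 1.43, 1.46 and 1.36 in the null pools. The groups did not overlap, yet the change was only -0.16 (SE 0.14, limma adjusted p = 0.4996). The largest fibrillar fall that did not pass was that of Col27a1, a cartilage collagen, at -0.85 (limma adjusted p = 0.0753). Col5a2, Col5a3 and Col24a1 changed by 0.23, -0.49 and 0.09, and Col24a1 was well above background on 2 wild-type arrays and 1 null array.

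**Figure D3:**
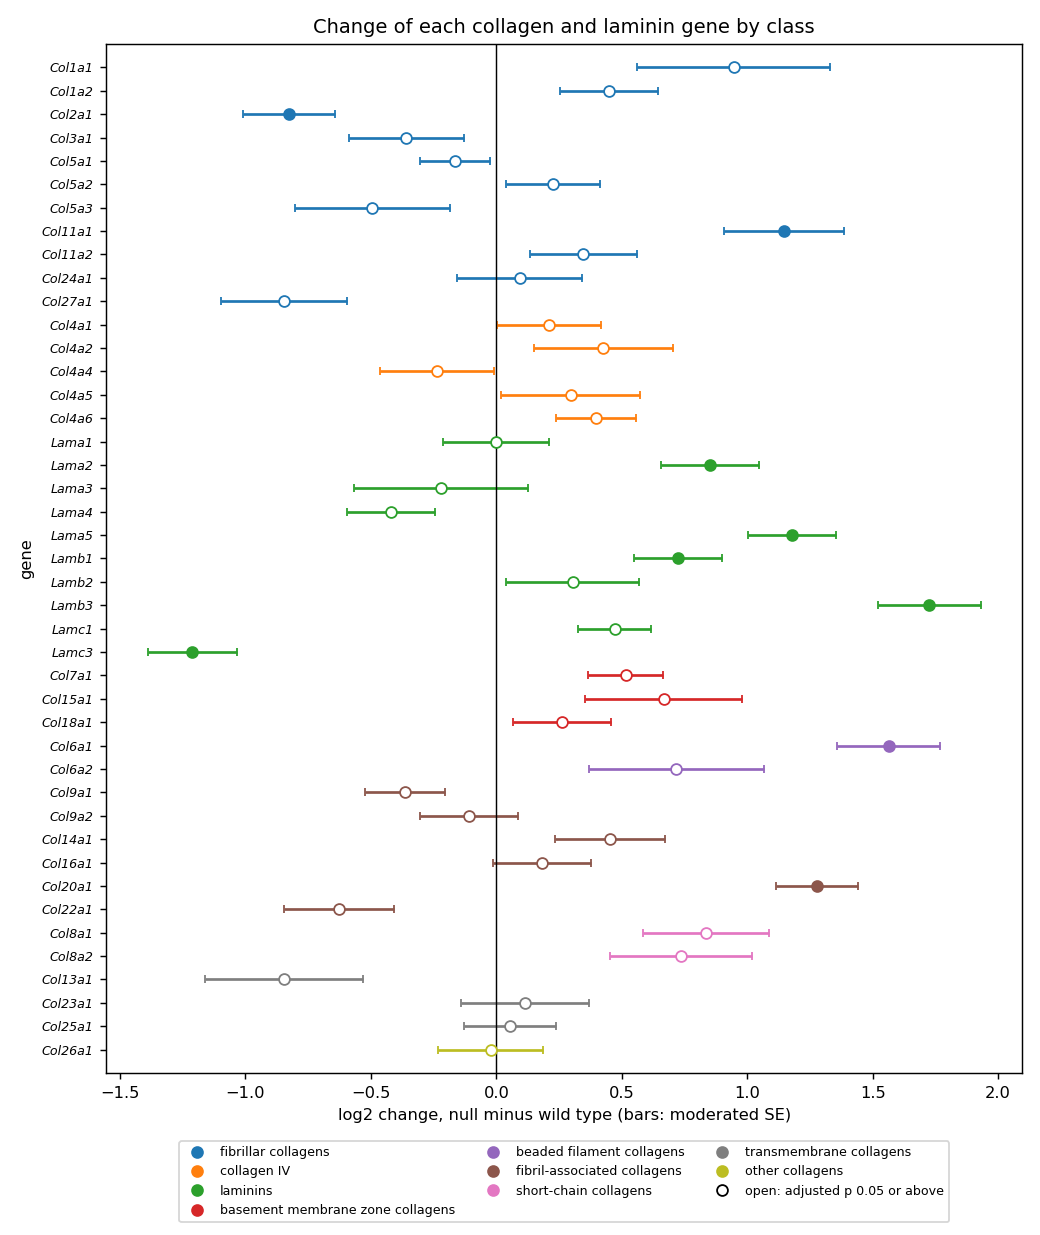
Log2 change, null minus wild type (horizontal axis), with its moderated SE as a bar, for the measured collagen and laminin genes reported (vertical axis), coloured by class, with filled symbols for the 9 genes past the threshold. The filled laminin symbols run from -1.21 (Lamc3) to 1.73 (Lamb3), the collagen IV symbols are all open, and the fibrillar symbols lie on both sides of 0.

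Set side by side, the 16 basement membrane genes (collagen IV and laminins) had 4 rises (25%) and 1 fall (6.25%). Their median change was 0.35. The 11 fibrillar genes had 1 rise and 1 fall (9.09% each) and a median change of 0.09. Of all genes 6.63% rose and 3.8% fell. Groups without overlap were found for 9 of the 16 (56.25%) and 4 of the 11 (36.4%, near the 32.9% of all genes). Within slides 1, 2 and 3 the median of the basement membrane genes was 0.38, 0.44 and 0.42, and that of the fibrillar genes was 0.03, -0.14 and -0.22. The median of all genes tested was -0.11, 0.09 and 0.13 on these slides. The basement membrane median was above 0 in all 15 alternative settings run. As mean deviation from the wild-type mean, the laminins stood at 0.41, 0.41 and 0.27 in null pools 1, 2 and 3, collagen IV at 0.14, 0.32 and 0.20, and the fibrillar collagens at 0.08, 0.05 and 0.01. Genes of a class are not replicates, so the difference between the classes was not tested.

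**Figure D4:**
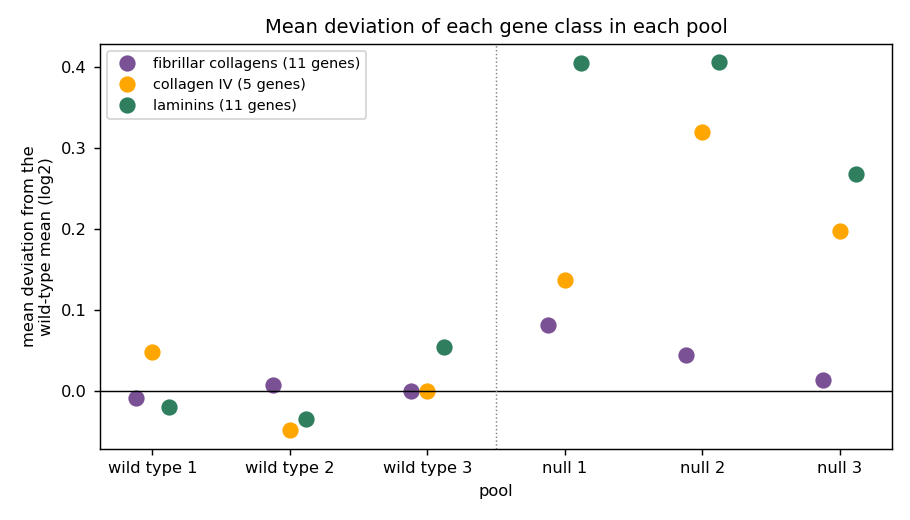
Mean deviation from the wild-type mean in log2 units (vertical axis) over the genes of 3 classes in each of the 6 pools (horizontal axis), with purple points for 11 fibrillar collagens, orange for 5 collagen IV genes and green for 11 laminins. The laminin points are the highest in null pools 1 and 2 at 0.41 and 0.41 and stay highest at 0.27 in null pool 3, and the fibrillar points stay at 0.08 or below in all null pools.

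Col6a1, a chain of the beaded microfibrils of type VI collagen that link basement membranes to the surrounding matrix, rose most among the collagens. It read -0.60, -0.73 and -0.09 in the wild-type pools and 1.17, 1.14 and 0.97 in the null pools. All null pools were close together and above the wild-type pools. The means of -0.47 ± 0.34 and 1.09 ± 0.11 (SD, n = 3 pools each) differ by 1.56 (SE 0.21, 2.96-fold higher, limma adjusted p = 0.00566). Blocked by slide, the adjusted p was 0.0255. Col6a1 passed in all 15 alternative settings, with changes from 1.39 to 1.82.

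Col6a2, which needs Col6a1 to form the type VI trimer, read -2.00, -1.38 and -0.88 in the wild-type pools and -0.18, -0.74 and -1.19 in the null pools. Its groups overlapped, with a change of 0.72 (SE 0.35, limma adjusted p = 0.239). The excess of Col6a1 over Col6a2 in deviation from the wild-type mean was 0.40, 0.93 and 1.21 in null pools 1 to 3 and 0.45, -0.30 and -0.15 in wild-type pools 1 to 3, so the groups overlapped, and it was not tested. Col6a3 had no matched probe, and Col6a4, Col6a5 and Col6a6 were well above background on 0 arrays.

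Of the 6 fibril-associated collagens measured, which sit on the surface of fibrils, 1 rose (16.7%, against 6.63% of all genes). Col20a1, a little studied member with a von Willebrand domain, read -4.57, -4.60 and -4.26 in the wild-type pools and -3.11, -3.29 and -3.20 in the null pools. The groups were clearly apart, with a change of 1.28 (SE 0.16, 2.42-fold higher, limma adjusted p = 0.00511 and, blocked by slide, 0.0365), and a second probe changed by 1.08. Without slide 3 the adjusted p was 0.0536. Col22a1, a collagen of tissue junctions, and Col9a1, a cartilage collagen, did not overlap between groups but missed the threshold at -0.63 and -0.36 (limma adjusted p = 0.116 and 0.198). Col14a1, Col16a1 and Col9a2 changed by 0.45, 0.18 and -0.11.

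The short-chain collagens Col8a1 and Col8a2, made by endothelium and its neighbours, did not overlap between the groups and changed by 0.83 and 0.74 without passing (limma adjusted p = 0.0789 and 0.147). The probes of Col8a2 disagreed, since a dimmer one changed by -1.68. None of the 3 transmembrane collagens passed in limma, and 1, Col13a1, had an unadjusted p under 0.05. Col13a1 changed by -0.85 (limma adjusted p = 0.137) and Col23a1 by 0.11. Without wild-type pool 1 Col13a1 was called lower. The probes of Col25a1 also disagreed, with 0.05 for the brightest and 0.71 and 0.95 for the others. The probe at 0.95 passed in a fit over single probes (limma adjusted p = 0.0261). Col25a1 was called higher when the mean of a gene's probes was used. Col26a1, the remaining collagen measured, changed by -0.02. Col10a1, Col17a1, Col19a1 and Col28a1 were well above background on 0 arrays, Col9a3 was well above it on 1, and no probe was matched to Col12a1.

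Around the chains themselves, a list of 72 genes for collagen and laminin biosynthesis, anchoring, binding and turnover had 65 members measured, of which 10 rose (15.4%, against 6.63% of all genes) and 2 fell (3.08%, against 3.8%). Under a block for slide 4 rose and 0 fell (6.15%, against 3.42% of all genes). The list of 19 folding and modifying enzymes had 4 rises (21.1%) and 0 falls, against 6.63% and 3.8% of all genes. P4ha2 and P4ha1 encode catalytic subunits of prolyl 4-hydroxylase, whose product hydroxyproline holds the triple helix together. P4ha2 read 0.35, 0.40 and 0.07 in the wild-type pools and 2.75, 3.15 and 2.87 in the null pools. P4ha1 read -0.64, -0.58 and -0.94 in the wild-type pools and 1.28, 1.10 and 1.22 in the null pools. The null pools of both were far above the wild-type pools, by 2.65 for P4ha2 (SE 0.18, 6.30-fold, limma adjusted p = 0.000522) and 1.92 for P4ha1 (SE 0.17, 3.78-fold, limma adjusted p = 0.00125).

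Plod2, the lysyl hydroxylase that prepares collagen ends for stable cross-links, read -0.18, 0.20 and -0.11 in the wild-type pools and 1.93, 1.59 and 1.73 in the null pools. It did not overlap either and rose by 1.78 (SE 0.18, limma adjusted p = 0.00207). P3h2, which hydroxylates collagen IV, rose by 0.65 at the edge of the threshold (limma adjusted p = 0.0493), and its call was lost in 12 of 15 alternative settings. The other members of these enzyme families gave smaller values. P4ha3, Plod1, Plod3, P3h1 and P3h3 changed by 0.08, 0.27, 0.27, -0.13 and 0.31, and none passed. The collagen chaperone Serpinh1 and the hydroxylase partner P4hb changed by 0.14 and 0.32 and did not pass either.

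**Figure D5:**
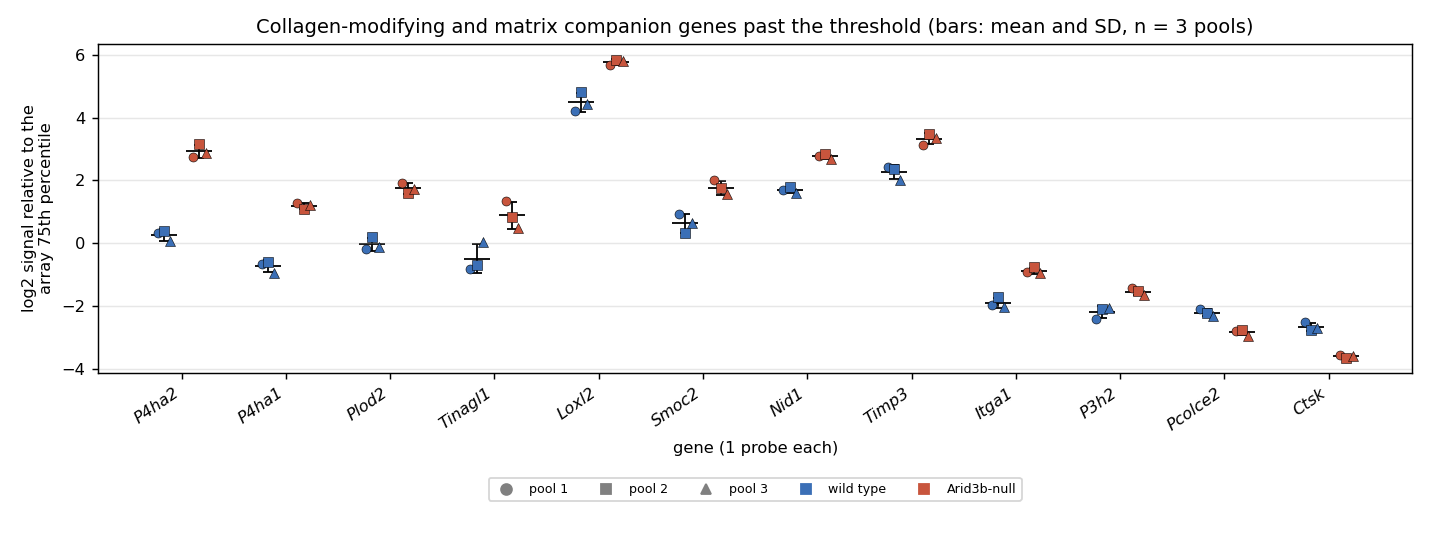
Log2 signal relative to the array's 75th percentile (vertical axis) for the 12 companion genes past the threshold (horizontal axis), with 1 symbol per pool, blue for wild type and red for Arid3b-null, and bars for the mean and SD of 3 pools. P4ha2, P4ha1 and Plod2 show the widest gaps, at 2.65, 1.92 and 1.78, and Pcolce2 and Ctsk are the 2 genes with lower null pools.

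Among 12 genes measured for processing and cross-linking, 1 rose and 1 fell (8.33% each, against 6.63% and 3.8% of all genes). Loxl2, a lysyl oxidase that cross-links collagen IV, read 4.22, 4.82 and 4.43 in the wild-type pools and 5.66, 5.84 and 5.81 in the null pools. Every null pool was higher, and the change of 1.28 (SE 0.19, limma adjusted p = 0.00881) also passed under a block for slide (adjusted p = 0.0374). Pcolce2, an enhancer of procollagen cleavage, fell by 0.63 on the log2 scale (limma adjusted p = 0.0424). This call was lost in 10 of 15 alternative settings, among them the block for slide (adjusted p = 0.222), each single array left out and normexp, where the change was -0.29. Pxdn, the peroxidase that joins collagen IV molecules by sulfilimine bonds, changed by 0.16 and did not pass.

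Of 13 other basement membrane proteins, 3 rose (23.1%, against 6.63% of all genes) and 0 fell (against 3.8%). The groups did not overlap for 8 (61.5%, against 32.9% of all genes). Nid1, the nidogen that bridges laminin and collagen IV, read 1.69, 1.79 and 1.62 in the wild-type pools and 2.79, 2.84 and 2.68 in the null pools. The spread within each group was small against its rise of 1.07 (SE 0.15, limma adjusted p = 0.00659 and, blocked by slide, 0.0574). Smoc2 and Tinagl1, calcium-binding and laminin-associated matrix proteins, rose by 1.14 and 1.37 (limma adjusted p = 0.0189 and 0.0329). Blocked by slide, neither passed (adjusted p = 0.0553 and 0.0849), and the calls were lost in 6 and 8 of 15 alternative settings. The proteoglycans Hspg2 (perlecan) and Agrn (agrin) changed by 0.62 and 0.65 without overlap and just missed the threshold (limma adjusted p = 0.0532 and 0.0669). Nid2 changed by 0.20 and did not pass.

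Among 11 receptor genes measured, Itga1 alone passed (9.09% risen, against 6.63% of all genes). It encodes the alpha chain of a collagen-binding integrin that prefers type IV, and it rose by 1.03 (SE 0.16, limma adjusted p = 0.00990 and, blocked by slide, 0.0650). The collagen receptors Itga11 and Ddr1 and the laminin receptor chain Itga6 changed by 0.75, 0.70 and 0.58 without overlap (limma adjusted p = 0.0543, 0.0536 and 0.0977). Of 10 matrix proteases and inhibitors measured, 1 rose and 1 fell (10% each, against 6.63% and 3.8% of all genes). Timp3, a matrix-bound protease inhibitor, rose by 1.06 (limma adjusted p = 0.0144 and, blocked by slide, 0.0716). Ctsk, a collagen-cleaving cathepsin, fell by 0.94 on the log2 scale (limma adjusted p = 0.0108 and, blocked by slide, 0.0838). Under normexp its change was -0.40 and did not pass. The gelatinases Mmp2 and Mmp9 changed by -0.09 and -1.21 and did not pass.

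Marker genes of the cell types in and around the dissected tissue were summed on the linear scale, each relative to the array's 75th percentile. Beside the counts of called markers given here and below, 6.63% of all genes rose and 3.8% fell. All 8 cardiomyocyte markers were above background, with sums of 1389 to 1614 in the wild-type and 1458 to 1842 in the null pools, and 1 of them rose (Nppa, by 1.27, limma adjusted p = 0.00765). The epicardial sum was 1.60 to 2.64 in the wild-type and 3.73 to 5.73 in the null pools (5 of 5 markers above background). Wt1, with the highest signal in this sum, rose by 1.42 (limma adjusted p = 0.0129) and was the only one called. Bnc1, Upk3b, Tbx18 and Upk1b changed by 0.99, 0.81, 0.30 and -0.03 and did not pass (limma adjusted p = 0.0522, 0.180, 0.630 and 0.970). The endothelial sum was 9.35 to 10.1 against 11.2 to 14.7 (6 of 6), with no marker past the threshold. Of these markers 5 were higher in the null mean and 1, Tek, was lower (-0.68). Kdr had the highest signal in this sum and changed by 0.38. As mean log2 deviation from the wild-type mean, the groups overlapped. The values were -0.33, 0.02 and 0.31 in wild-type pools 1 to 3 and 0.54, 0.10 and -0.11 in null pools 1 to 3. The mesenchyme sum was 24.4 to 29.2 against 20.4 to 23.7 (8 of 8), with 1 fallen.

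Sums were also taken for extraembryonic and other non-cardiac cells. Parietal endoderm makes large amounts of laminin and collagen IV, and its sum was 9.26 to 11.2 in the wild-type and 9.20 to 10.5 in the null pools (7 of 7 markers above background, 2 risen and 1 fallen). Its members moved in both directions. Fst and Sox7 rose by 1.37 and 1.34 (limma adjusted p = 0.0206 and 0.0215). Nostrin, the fallen one, changed by -2.06 (limma adjusted p = 0.0194). It was well above background on 3 wild-type and 0 null arrays, so it passed the filter only through the wild-type group. Its change is therefore a bound, and its p is not used as support. Pth1r, with the highest signal in this sum, changed by -0.49 without overlap and did not pass (limma adjusted p = 0.102). The visceral endoderm sum was 0.430 to 0.732 against 3.02 to 4.23 (6 of 6, 3 risen). The megakaryocyte sum was 2.56 to 5.13 against 36.3 to 59.7 (6 of 6, all risen). The trophoblast sum was 0.232 to 0.269 in the wild-type pools and 0.193, 0.688 and 31.5 in null pools 1, 2 and 3. Only 3 of 8 of those markers were above background, and Prl7a1, Prl7a2, Ctsq and Tpbpa were not.

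The notochord and cartilage progenitor sum, beside which the fall of Col2a1 stands, was 1.49 to 2.01 against 1.47 to 2.08 (6 of 7, Noto not above background). Its members moved in both directions: T, well above background on 1 of 3 wild-type arrays, rose by 2.57 (limma adjusted p = 0.0469), and Shh and Foxa2 changed by -1.58 and -0.54 without overlap and did not pass (limma adjusted p = 0.0546 and 0.160). The neural tube sum was 1.09 to 1.47 against 0.489 to 0.575 (4 of 6, 2 fallen, Pax6 and Olig2 not above background). Nkx6-1 and Tubb3 fell by 2.90 and 1.16 on the log2 scale (limma adjusted p = 0.00139 and 0.0315). Sox1 and Sox2 changed by 0.09 and -0.10 and did not pass (limma adjusted p = 0.857 and 0.754). The 6 hypoxia-responsive genes all rose, with a sum of 3.50 to 4.09 against 24.3 to 30.8, beside P4ha1, P4ha2, Plod2 and Loxl2. Like the other lists, this one was chosen with earlier results of these data known, so its count is not a test. The part of these cell types and of the hypoxia-responsive genes in the changes of the members was not tested.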

How the data were processed

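The deposited intensity values came from scans of Agilent single-colour arrays of design 026655, made per the file headers with Feature Extraction 10.7.3.1, which subtracts background. The deposited flags, scores of 0 or 1 made by that software per the file headers, mark spots well above background, saturated or outlying. The authors' deposited table holds log2 values of 24158 probes, with its centring and normalization not stated, and it correlated above 0.999 with the scanner signal on each array (across probes).

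Processed signals were put on the log2 scale relative to the 75th percentile of the non-control spots of the same array. Outlier spots were left out. Probes well above background on at least 3 of 6 arrays were kept (26857 of 39429), named through their RefSeq accession in the GRCm38.p6 gene table (26424 probes matched a symbol and 13005 did not). The file headers name another build, so no probe positions are given. Each gene was read by its brightest kept probe, for 21809 genes and entries (15242 have a symbol). The null and wild-type pools were compared by limma (version 3.58.1, lmFit and eBayes, R version 4.3.3, the package data.table at version 1.17.8), two-sided, with Benjamini-Hochberg adjustment over all of them. With 3 pools per group the smallest p of an exact permutation test is 0.1, so none was used. The p-values measure the spread between pools of 4 embryos.

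The members and all gene lists were chosen with earlier results of these data known. Values on every array are given for called members and for Col1a1, Col1a2, Col2a1, Col3a1, Col5a1, Col6a1, Col18a1, Col4a1, Col4a2, Lama1, Lama4, Lama5, Lamb1 and Lamc1. Other members have their change or range. 1 gene counted in the totals is not reported here by name or shown in the figures. Each companion list has up to 4 called genes with the smallest p, and companion genes named without a call beyond that were chosen after their values were seen.

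Deviations from the group means of pools with the same number correlated at -0.40, -0.09 and -0.41 across genes, so the numbers were not taken to pair the samples. The slide as a block was an alternative, with quantile normalization, median scaling, normexp (offset 50, run on the median spot signal), no filter on dim probes, only probes above background on all 6 arrays, the mean of a gene's probes, the authors' table and each array left out. Leaving out slide 3 was added after the data were seen.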

Additional observations from a re-analysis of the deposited data

How the results depend on the processing

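Col6a1 passed in all 15 settings, Col20a1 and Lamb3 in 14, Lama5 and Lamc3 in 13, Col11a1 in 8, Col2a1 in 7, Lama2 in 6 and Lamb1 in 4. No called member changed direction. Since the groups of every called member did not overlap, the direction could not change on leaving out arrays or under the slide block. Against 7 rises and 2 falls, the counts of members were 4 and 1 when dim probes were kept, 3 and 1 under a replicate block for slide, and 1 and 0 without slide 3. Over all genes these settings gave 754 and 283 (of 32530), 542 and 203, and 214 and 59. Falls numbered 1 under normexp and 1 in the authors' table. Leaving out 1 array gave 4 to 7 rises and 1 to 3 falls (592 to 1173 and 241 to 578 over all genes). For companion genes, against 10 rises and 2 falls, the block gave 4 and 0, leaving out slide 3 gave 2 and 0, and leaving out 1 array gave 5 to 9 and 0 to 2. Companion falls were 0 under normexp and 1 with dim probes kept. The fibrillar median of 0.09 became -0.041 under median scaling, -0.01 under quantile normalization and -0.17 to 0.22 on leaving out 1 array. The basement membrane median of 0.35 became 0.22 under median scaling, 0.40 with dim probes kept, 0.30 with the mean of a gene's probes, 0.46 without slide 3 and 0.34 to 0.42 on leaving out 1 array (0.335 without null pool 1). Median scaling moved the median of all genes from 0.03 to -0.11 and the calls over all genes from 1447 rises and 829 falls to 1105 and 1399. Lama1, near 0, turned to 0.05 under quantile normalization (0.0507) and in the authors' table (0.0505), and leaving out wild-type pool 2 or null pool 1 gave 0.12 or 0.16 (leaving out 1 array gave -0.14 to 0.16). Fewer genes or arrays enter several of these settings, and the cause of the other shifts was not tested. With 3 arrays per group, members near background such as Col24a1 are measured least firmly.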
